A study of Mus musculus with 8 samples.

Results

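The mitochondrial enzymes that break fatty acids down in the heart, with the proteins that bring the acyl chains into the mitochondrion and take the electrons away, were compared between 4 wild-type (WT) hearts and 4 hearts of mice lacking steroid receptor coactivator-2 (SRC-2, gene Ncoa2). The 32 genes were listed by name from the pathway, and each measured gene was read by its brightest probeset over the 8 arrays. Of the 32, 30 were measured among 18193 genes in all. Acsl1, which activates long-chain fatty acids in heart muscle, had no probeset in the annotation used and was not analysed here. Cpt1b, the muscle form of the entry enzyme, was covered only by a probeset that lists several genes, so no value is given for it. On these arrays 26 of the 30 had a higher mean in the KO hearts and 4 had a lower mean, with a median log2 fold change (KO minus WT) of 0.29. In 19 of the 30 every KO heart lay above every WT heart (3.11% of all genes), and in none did every KO heart lie below (3.72% of all genes). Over all genes 46.9% had a higher KO mean. Among genes with a WT mean log2 signal over 12, as in 22 of the 30, 70.2% had a higher KO mean. In 12.7% of these bright genes every KO heart lay above. The counts by step below are to be read against these shares. No single gene of the 30 passed the test after adjustment over all 18193 genes.

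All mice were male, of the strain labelled C57B/6Jx129Sv, fed ad lib, unstressed, and 10 to 12 weeks old by the labels. By the labels the groups differed only in genotype, wild type against SRC-2 KO. The methods describe age-matched littermates with a wider age range than the labels. The methods name no tissue-restricted driver for the deletion, so SRC-2 is missing from other organs of these mice as well. RNA came from the whole organ, 1 heart per array, and was hybridised to an Affymetrix array of mouse transcripts. The array signal of Ncoa2 itself was 1934 ± 230.5 in the WT hearts (SD, n = 4) and 249.8 ± 16.2 in the KO hearts (SD, n = 4), and it fell by 2.95 on the log2 scale (limma, adjusted p = 5.8e-04). In RNA from a whole organ, fewer cells of a type and less RNA per cell cannot be told apart.

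A long-chain fatty acid is first coupled to coenzyme A, passed across the inner mitochondrial membrane as a carnitine ester, and then shortened in a repeating spiral. Each turn runs through dehydrogenation, hydration, a further dehydrogenation and thiolysis, and hands electrons to the respiratory chain and acetyl-CoA to the Krebs cycle. The adult heart draws most of its energy from this pathway, and its genes are classical targets of the nuclear receptor PPARα and of the estrogen-related receptors (ERR), working with the coactivator PGC-1. SRC-2 is a coactivator of nuclear receptors.

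Because the enzymes are known as receptor targets, the RefSeq promoter windows of the members, each 300 bases long from 250 before to 50 after an annotated start, were searched on both strands (GRCm38.p6). Of the 32 genes, 26 had a window, 27 windows in all. The receptor core motif AGGTCA was found in 4 of the 27 windows (14.8%), those of Acadm, Acadvl, Cpt1a and Echs1, against 16.3% of 32851 windows of all genes. The extended ERR motif TNAAGGTCA, which contains the core, was in none of the 27 and in 1.28% of all windows. A direct repeat of the core with 1 base between the copies and at most 1 mismatch in each copy, the arrangement bound by PPAR with its partner RXR, was in the Etfa window alone (3.70% of the 27 windows, 2.40% of all). These matches describe the letters of the windows and say nothing of binding. They are shown because Cpt1a was lower in KO hearts while the other 4 genes were higher. The stretches lie at chr11:70015470-70015555 on the minus strand (Acadvl), chr7:140116459-140116544, minus (Echs1), chr3:153944847-153944893, minus (Acadm), chr19:3323167-3323252, plus (Cpt1a) and chr9:55512268-55512360, minus (Etfa). They are written 5′ to 3′ along the gene's strand, and capitals mark the match, which begins at position -87 from the start in Acadvl, -83 in Echs1, -249 in Acadm, -94 in Cpt1a and -77 in Etfa. In Acadm, Cpt1a and Etfa the match is on the opposite strand and reads in reverse complement.
Acadvl: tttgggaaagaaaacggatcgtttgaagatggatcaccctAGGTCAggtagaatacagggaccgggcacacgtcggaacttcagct
Echs1: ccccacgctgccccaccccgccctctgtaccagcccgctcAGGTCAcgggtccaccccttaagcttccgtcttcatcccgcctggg
Acadm: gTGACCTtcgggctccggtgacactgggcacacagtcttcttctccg
Cpt1a: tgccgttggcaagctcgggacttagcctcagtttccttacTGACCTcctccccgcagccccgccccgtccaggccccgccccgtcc
Etfa: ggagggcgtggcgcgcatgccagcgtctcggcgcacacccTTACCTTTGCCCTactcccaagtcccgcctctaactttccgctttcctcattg

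The 2 subunits of the mitochondrial trifunctional protein, Hadha and Hadhb, are encoded head to head on chromosome 5 with their annotated starts 273 bases apart. The Hadha window (chr5:30154931-30155230, minus strand) and the Hadhb window (chr5:30155003-30155302, plus strand) therefore overlap by 228 bases. The Hadhb window is printed because both genes share it, and the capitals mark the part that also belongs to the Hadha window.
Hadhb: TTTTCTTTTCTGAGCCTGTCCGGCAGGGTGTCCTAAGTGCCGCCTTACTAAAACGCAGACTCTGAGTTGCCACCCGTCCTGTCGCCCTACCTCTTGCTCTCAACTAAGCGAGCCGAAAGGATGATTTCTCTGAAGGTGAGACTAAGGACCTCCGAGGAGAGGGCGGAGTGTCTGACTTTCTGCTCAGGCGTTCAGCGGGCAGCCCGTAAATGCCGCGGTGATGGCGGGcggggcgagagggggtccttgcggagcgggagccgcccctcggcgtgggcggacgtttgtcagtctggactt

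Activation and entry into the mitochondrion come first in the pathway. Of 8 measured genes, 7 had a higher KO mean and 1 a lower one, at a median log2 fold change of 0.24. In 4 of the 8 every KO heart was above every WT heart (3.11% of all genes, 12.7% of those over 12). Cpt2, the inner-membrane carnitine palmitoyltransferase that rebuilds acyl-CoA in the matrix, had log2 signals of 13.16, 12.88, 13.11 and 13.03 in WT replicates 1 to 4 and of 13.54, 13.26, 13.55 and 13.32 in KO replicates 1 to 4. All 4 KO hearts were above the highest WT heart, a gap of 0.11, and the log2 fold change was 0.38 ± 0.12 (SE), or 29.8% more signal (limma adjusted p = 0.411 with a common prior variance and 0.130 with a trended one). Mlycd, malonyl-CoA decarboxylase, removes the malonyl-CoA that blocks entry through Cpt1. Its log2 signals were 10.81, 10.93, 10.99 and 11.02 in WT and 11.21, 11.34, 11.40 and 11.18 in KO hearts. The groups were again apart, by 0.16, at a log2 fold change of 0.34 ± 0.11 (SE; adjusted p = 0.402, trended 0.122).

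Cpt1a, the form of the outer-membrane entry enzyme that the adult heart uses less than Cpt1b, was on the other side. Its log2 signals were 10.07, 9.93, 10.25 and 10.20 in WT and 9.87, 9.76, 9.97 and 9.76 in KO hearts. The groups overlapped by 1 pair of hearts, KO replicate 3 lying above WT replicate 2, and the log2 fold change was -0.27 ± 0.12 (SE; unadjusted p = 0.049 and adjusted p = 0.497 in the limma fit over all genes, trended adjusted p = 0.302). Both other Cpt1a probesets were lower in KO hearts as well, with log2 fold changes of -0.46 and -0.45 and overlapping groups (exact permutation p = 0.17 and 0.20). Cpt1a was the single member with a lower KO mean at an unadjusted p under 0.05, in each of the 2 fits, where 6.09% of all genes were so with the common variance and 7.22% with the trended prior.

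The remaining entry genes had smaller differences. Crat, which moves acetyl groups between coenzyme A and carnitine, was 12.21, 11.90, 12.07 and 12.09 in WT and 12.29, 12.35, 12.38 and 12.31 in KO hearts on the log2 scale. The 4 KO hearts lay close together and all above WT (log2 fold change 0.27 ± 0.10 SE). A second Crat probeset, at a WT mean log2 signal of 10.69, differed by 0.06 with overlapping groups. Acot2, a mitochondrial thioesterase that takes coenzyme A off again, had a log2 fold change of 0.26 ± 0.12 (SE), with all KO hearts above all WT hearts. Slc22a5, the carnitine importer of the plasma membrane, was at 0.22 ± 0.12 (SE) and the thioesterase Acot13 at 0.13 ± 0.11 (SE), both with overlapping groups. Acot1, the cytosolic near-copy of Acot2, rested on 1 heart. Its KO log2 signals were 9.17, 9.58, 10.48 and 9.63 against 9.50, 9.67, 9.52 and 9.68 in WT, and its log2 fold change of 0.12 turned to -0.13 without KO replicate 3. Acot1 and Acot2 are near-identical in sequence and also share probesets that were set aside, so their separate values are uncertain.

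The acyl-CoA dehydrogenases open each turn of the spiral, each for its own range of chain lengths, and pass their electrons to the electron transfer flavoprotein. Of 7 measured, 5 had a higher and 2 a lower KO mean, with a median log2 fold change of 0.22. The 4 that serve the spiral itself, for very long (Acadvl), long (Acadl), medium (Acadm) and short chains (Acads), each had every KO heart above every WT heart. All 4 had a WT mean log2 signal over 12, where 12.7% of genes had every KO heart above. Acadvl, whose promoter is shown above, had log2 signals of 14.56, 14.35, 14.34 and 14.23 in WT and 14.85, 14.72, 14.75 and 14.66 in KO hearts. Its log2 fold change was 0.37 ± 0.11 (SE), or 29.7% more signal (adjusted p = 0.399, trended 0.137). Acads was at 12.40, 12.17, 12.25 and 12.40 in WT and 12.65, 12.51, 12.64 and 12.63 in KO hearts, which gives a log2 fold change of 0.30 ± 0.10 (SE; adjusted p = 0.432, trended 0.148). Every KO heart was thus higher in both genes, and the gap was 0.10 in Acadvl and 0.11 in Acads.

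Acadm and Acadl had narrower gaps between the groups. Acadm was at 15.32, 15.36, 15.25 and 15.18 in WT and 15.73, 15.52, 15.69 and 15.36 in KO hearts. The lowest KO heart, replicate 4, was above the highest WT heart by less than 0.01 (log2 fold change 0.30 ± 0.12 SE, adjusted p = 0.479, trended 0.292). Acadl was at 15.25, 15.23, 15.16 and 15.10 in WT and 15.47, 15.28, 15.38 and 15.33 in KO hearts, for a log2 fold change of 0.18 ± 0.10 (SE; adjusted p = 0.577, trended 0.497) with a gap of 0.02. The 3 further members of the family had overlapping groups. Acad11 was at 0.22 ± 0.12 (SE). Acad9, which is needed to assemble respiratory complex I, was at -0.23 ± 0.17 (SE) on its brightest probeset and at 0.20 on its second one, so its direction depends on the probeset read. Acad10 was dim, at a mean log2 signal of 7.71 in WT and 7.56 in KO hearts, with a log2 fold change of -0.15 ± 0.24 (SE).

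**Figure D1:**
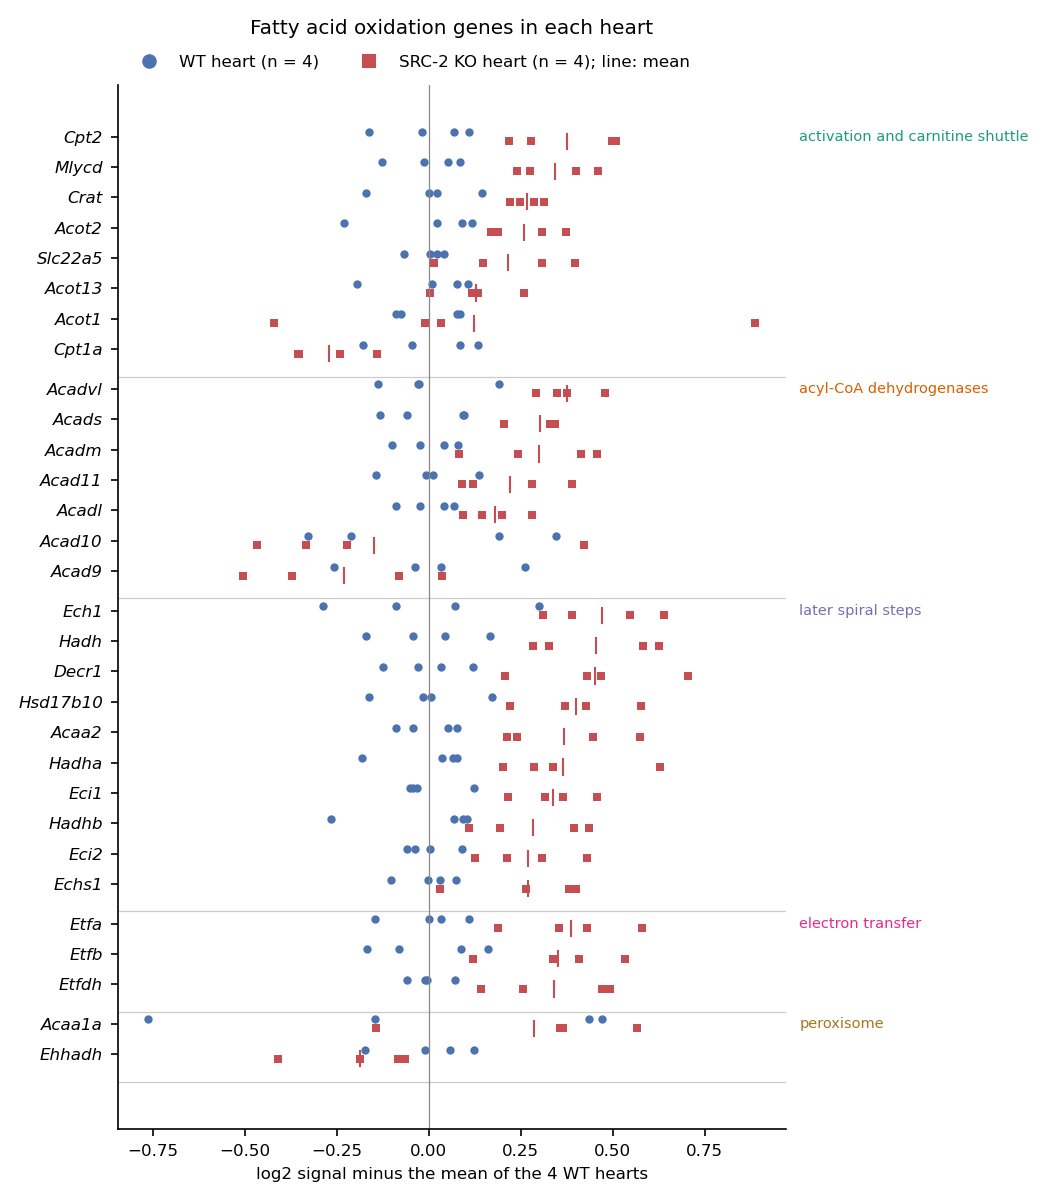
Log2 signal of each of the 30 measured genes in each heart, as the difference from the mean of the 4 WT hearts (x axis, log2 units), grouped by pathway step. Circles are WT hearts, squares are KO hearts and the vertical line is the KO mean. In 9 of the 10 later spiral genes all KO squares lie to the right of all WT circles, while Cpt1a, Acad9, Acad10 and Ehhadh have KO means to the left of zero.

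The later steps of the spiral hydrate, oxidise and cleave the chain. All 10 genes had a higher KO mean, between 0.27 and 0.47 on the log2 scale with a median of 0.37. In 9 of the 10 every KO heart was above every WT heart. All 10 had a WT mean log2 signal over 12, where 12.7% of genes had every KO heart above. Hadh, the hydroxyacyl-CoA dehydrogenase for shorter chains, had the smallest unadjusted p of all 30 genes in the common-variance fit. Its log2 signals were 15.37, 15.28, 15.50 and 15.16 in WT and 15.95, 15.61, 15.91 and 15.65 in KO hearts. The log2 fold change was 0.46 ± 0.13 (SE), or 37.1% more signal, with an adjusted p of 0.397 in that limma fit and of 0.147 in the trended one. The 2 subunits of the trifunctional protein, which carries out hydration, dehydrogenation and thiolysis of long chains, were both higher. Hadha was at 13.59, 13.34, 13.56 and 13.60 in WT and 13.81, 13.86, 14.15 and 13.73 in KO hearts (log2 fold change 0.36 ± 0.13 SE). Hadhb was at 15.36, 15.35, 15.33 and 14.99 in WT and 15.65, 15.45, 15.70 and 15.37 in KO hearts (log2 fold change 0.28 ± 0.14 SE). In Hadhb the gap between the groups was 0.01, and a second bright probeset differed by 0.12 with overlapping groups.

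Hsd17b10, a dehydrogenase of branched and shorter acyl chains, was at 12.50, 12.17, 12.32 and 12.34 in WT and 12.70, 12.76, 12.91 and 12.55 in KO hearts. All KO hearts were higher, at a log2 fold change of 0.40 ± 0.12 (SE; adjusted p = 0.402, trended 0.110). A second Hsd17b10 probeset, at a WT mean log2 signal of 11.33, differed by 0.22 with overlapping groups. Acaa2, the thiolase that releases acetyl-CoA, was at 14.63, 14.60, 14.51 and 14.46 in WT and 14.99, 14.79, 15.12 and 14.76 in KO hearts. Its log2 fold change was 0.37 ± 0.12 (SE), and each of its 2 other probesets also had all KO hearts above all WT hearts, at 0.34 and 0.32. Echs1, the short-chain hydratase, was the single later gene with overlapping groups, KO replicate 4 lying among the WT hearts at 13.67 (log2 fold change 0.27 ± 0.12 SE).

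Unsaturated fatty acids need auxiliary enzymes that shift or remove their double bonds before the spiral can go on. All 4 measured, Decr1, Ech1, Eci1 and Eci2, had every KO heart above every WT heart, with a median log2 fold change of 0.40. Their WT mean log2 signals were all over 12, where 12.7% of genes had every KO heart above. Decr1, the mitochondrial dienoyl-CoA reductase, was at 13.90, 13.75, 13.82 and 13.66 in WT and 14.21, 13.99, 14.49 and 14.25 in KO hearts. Its log2 fold change of 0.45 ± 0.13 (SE) came with the lowest trended adjusted p of the 30 genes, 0.106, and an adjusted p of 0.399 in the common-variance fit. Ech1, a dienoyl-CoA isomerase, had the largest log2 fold change of the 30, 0.47 ± 0.16 (SE), or 38.7% more signal. Its log2 signals were 14.99, 14.83, 15.22 and 14.63 in WT and 15.47, 15.31, 15.56 and 15.23 in KO hearts, so WT hearts spread widely and the gap was 0.01. The enoyl-CoA isomerase Eci1 was at 14.29, 14.12, 14.14 and 14.13 in WT and 14.53, 14.48, 14.63 and 14.39 in KO hearts (0.34 ± 0.10 SE). Its relative Eci2 was higher by 0.27 ± 0.11 (SE).

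Electron transfer joins the first dehydrogenation to the respiratory chain. All 3 genes had higher KO means, with a median log2 fold change of 0.35. Etfa, the α subunit of the electron transfer flavoprotein, was at 14.38, 14.41, 14.49 and 14.23 in WT and 14.73, 14.81, 14.95 and 14.56 in KO hearts. The groups were apart, at a log2 fold change of 0.39 ± 0.12 (SE; adjusted p = 0.403, trended 0.149). Its partner Etfb was at 14.45, 14.21, 14.38 and 14.12 in WT and 14.70, 14.63, 14.82 and 14.41 in KO hearts, where KO replicate 4 lay below WT replicate 1 (0.35 ± 0.13 SE). Etfdh, the dehydrogenase that hands these electrons to ubiquinone, was at 14.19, 14.11, 14.11 and 14.06 in WT and 14.59, 14.38, 14.61 and 14.26 in KO hearts (0.34 ± 0.12 SE), all KO hearts above all WT hearts.

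The peroxisome shortens very long and branched chains before they reach the mitochondrion, and its 2 listed genes had overlapping groups. Ehhadh, the peroxisomal bifunctional enzyme, was at 8.64, 8.71, 8.41 and 8.57 in WT and 8.17, 8.50, 8.52 and 8.39 in KO hearts, so that the log2 fold change was -0.19 ± 0.12 (SE). Acaa1a, a peroxisomal thiolase, ranged from 8.05 to 9.29 in WT and from 8.67 to 9.38 in KO hearts (0.29 ± 0.31 SE), and its second probeset gave -0.11. Acaa1a has a near-identical copy, Acaa1b, so its value is uncertain. Both genes were dim, at mean log2 signals of 8.58 and 8.82 in WT.

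Most of the 30 genes were higher by a similar small amount, and none was called on its own. The paper that reported these arrays gives the opposite direction by qPCR. It describes several genes of fatty acid uptake, storage and breakdown as lower in SRC-2 KO hearts. Acadl and Cd36 are in that panel. The cause of the difference was not tested. Of the 30, 17 had a higher KO mean at an unadjusted p under 0.05 in the common-variance fit, where 3.94% of all genes did. In the trended fit 21 did, against 5.33%. Both shares are over all genes. The matching share was not counted for genes with a WT mean log2 signal over 12, as in 22 of the 30, so it is not known how far these counts exceed it. After adjustment no member passed 0.05 in either fit, at adjusted p between 0.397 and 0.888 and between 0.106 and 0.862, while 4 genes (0.022%) passed with the common variance and 68 (0.374%) with the trended prior. The share of members with every KO heart above every WT heart was 19 of 30, against 3.11% of all genes, and 0 of 30 lay wholly below, against 3.72%. A higher KO mean was found in 26 of 30 members and in 46.9% of all genes. Among genes over 12 the shares were larger, with 12.7% wholly above and 70.2% with a higher KO mean. Without WT replicate 2, or without KO replicate 3, the count at an unadjusted p under 0.05 dropped from 17 to 11.

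**Figure D2:**
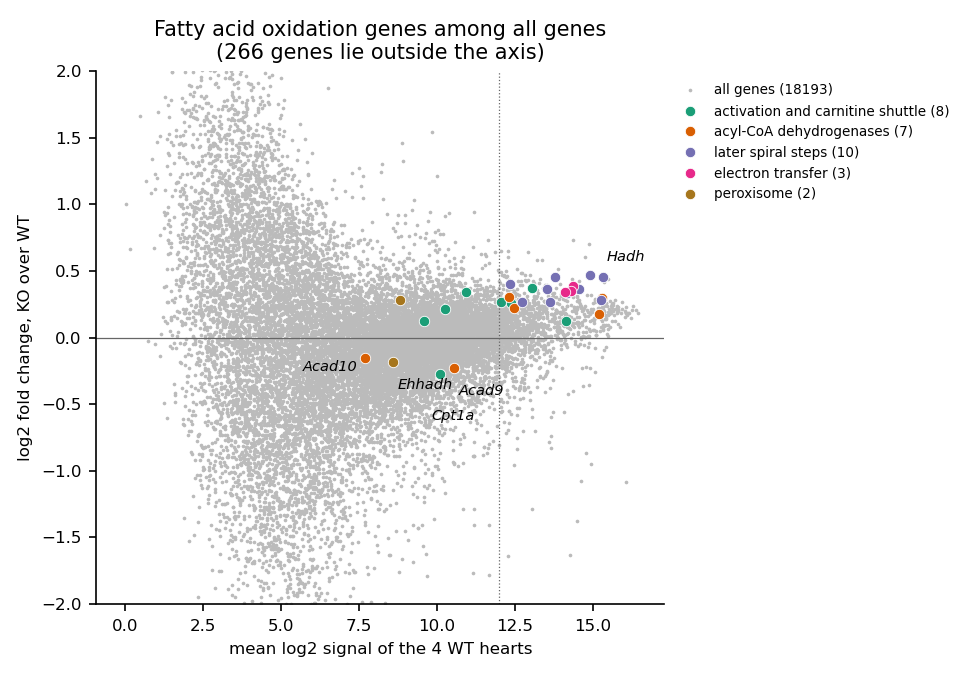
Log2 fold change (KO over WT, y axis) against the mean log2 signal of the 4 WT hearts (x axis) for all 18193 genes in grey and the 30 measured members in colour by step. The dotted line marks a log2 signal of 12, and all 22 members to the right of it lie above zero while 4 of the 8 to the left lie below.

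Bright genes as a class were higher in KO hearts on these arrays, and most members are bright. Among the 1230 genes with a WT mean log2 signal over 12, 70.2% had a higher KO mean, 12.7% had every KO heart above every WT heart, and the median log2 fold change was 0.10, against -0.03 over all genes. Of the 22 members over 12, all 22 had a higher KO mean and 18 had every KO heart above, with a median of 0.34. Of the 8 members at or under 12, 4 were higher and 4 lower, with a median of -0.01, and Mlycd alone had its groups apart. After quantile normalization, which gives the arrays one common distribution, the median over all genes over 12 was 0.02 and 7.86% of them had every KO heart above. The members then had a median of 0.24, and 15 of 30 had every KO heart above. Hadha, Hadhb, Acadl, Acot2 and Ech1 lost the separation of their groups, at log2 fold changes of 0.28, 0.14, 0.03, 0.20 and 0.33, and Etfb gained it. Decr1 (0.37), Hsd17b10 (0.35), Mlycd (0.34), Cpt2 (0.31) and Hadh (0.29) kept their groups apart, and Cpt1a stayed lower at -0.24.

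A second probeset gives another reading of the same gene, from the same RNA. Of the 30 members, 14 had 1 probeset and 16 had several, with 22 further probesets among them. Of these, 19 had the sign of the brightest, and of the 11 with a WT mean log2 signal over 9, 10 did, Acad9 being the exception. In 4 of the 11 the groups were apart in the same direction (exact permutation p = 0.0286 for each, the smallest that 4 against 4 hearts allow). These belonged to Hadh, Acaa2 and Decr1, whose brightest probesets had their groups apart as well. Each had a WT mean log2 signal over 12, where 12.7% of genes had every KO heart above. The share over all probesets was not counted. The second Hadh probeset was at 14.13, 13.94, 14.41 and 13.89 in WT and 14.76, 14.73, 14.98 and 14.63 in KO hearts, giving a log2 fold change of 0.68 against 0.46 on the brightest one.

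**Figure D3:**
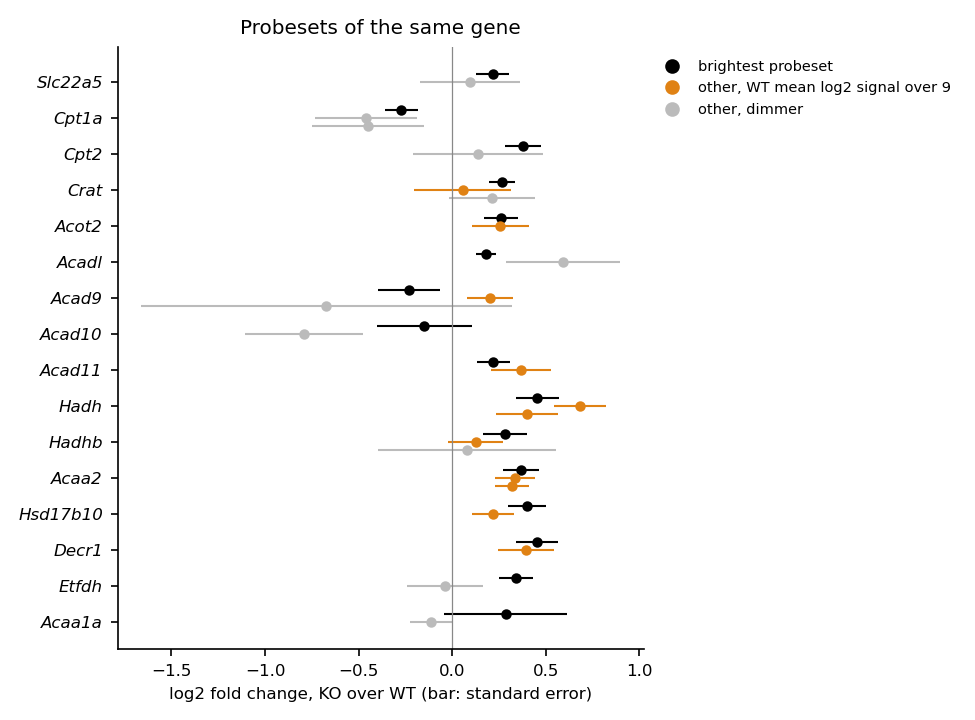
Log2 fold change (KO over WT, x axis) of every probeset of the 16 members that have several, with bars for the standard error from the 4 WT and 4 KO hearts. Black is the brightest probeset, orange a further one with a WT mean log2 signal over 9 and grey a dimmer one. All 3 readings of Hadh, of Acaa2 and of Cpt1a lie on one side of zero, while those of Acad9 lie on both.

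The KO hearts were not all alike. The mean over the 30 genes, as a difference from the WT mean, was 0.03, -0.03, 0.03 and -0.02 in WT replicates 1 to 4 and 0.27, 0.19, 0.37 and 0.14 in KO replicates 1 to 4. Its SD over 4 hearts was 0.03 in WT and 0.10 in KO, and no test of these spreads was run. KO replicate 3 was the highest KO heart in 19 of the 30 genes and KO replicate 4 the lowest in 18. Among WT hearts, replicate 1 was the highest in 16 genes and replicate 4 the lowest in 13. For the 10 later spiral genes the KO means were 0.42, 0.29, 0.54 and 0.22, and for electron transfer 0.41, 0.34, 0.54 and 0.15, so both steps ranked the 4 KO hearts in the same order.

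Pathways that use the products of fatty acid oxidation were measured beside it. The 17 measured Krebs cycle genes all had higher KO means, at a median log2 fold change of 0.24 and 7 with every KO heart above, and the 27 measured respiratory chain subunits did too, with a median of 0.21 and 4 with every KO heart above. All of these genes had a WT mean log2 signal over 12, where 70.2% of genes had a higher KO mean and 12.7% had every KO heart above, so the count in the respiratory chain was near that share. None of either list passed after adjustment. By qPCR the paper describes several enzymes of both pathways as lower in SRC-2 KO hearts. Krebs cycle means over the KO hearts were 0.32, 0.20, 0.27 and 0.12, and those of the respiratory chain were 0.39, 0.15, 0.30 and 0.07, where replicate 1 and not replicate 3 was the highest. Suclg2, a subunit of succinyl-CoA ligase, was at 13.26, 13.05, 13.12 and 13.02 in WT and 13.52, 13.51, 13.62 and 13.43 in KO hearts (0.41 ± 0.10 SE, adjusted p = 0.349, trended 0.071). Dlst (0.28) and Dld (0.28), which with Ogdh make up the oxoglutarate dehydrogenase complex, also had their groups apart, although Dld averaged over all its probesets was at -0.25. In the respiratory chain, the complex I subunit Ndufa12 had a log2 fold change of 0.70 ± 0.21 (SE), Ndufa8 one of 0.37 and Ndufs1 one of 0.27.

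Markers of the cells that a heart holds were measured in the same arrays. Their counts are to be read against the 46.9% of all genes with a higher KO mean. For genes with a WT mean log2 signal over 12 that share was 70.2%. The cardiomyocyte markers ran from 8.96 to 16.37 in WT mean log2 signal. No marker of cardiomyocytes, fibroblasts, endothelial cells or macrophages passed after adjustment in either fit. All 12 markers of cardiomyocytes, such as Myh6, Tnnt2 and Ryr2, had a higher KO mean, with a median of 0.18, none with its groups apart, and their summed signal ran from 559532 to 741868 in WT and from 663711 to 848471 in KO hearts. Their mean as a difference from WT was 0.06, 0.13, 0.02 and -0.21 in WT and 0.29, 0.12, 0.25 and 0.03 in KO hearts. Fibroblast markers were lower in 12 of 12 (median -0.63; sums 95655 to 156289 in WT, 63942 to 100183 in KO), endothelial markers in 10 of 10 (median -0.23; sums 16081 to 19937 in WT, 13137 to 17845 in KO) and macrophage markers in 10 of 10 (median -0.37; sums 21212 to 27025 in WT, 16262 to 20079 in KO). Atrial markers were lower in 12 of 13, with a median of -1.16 (sums 165816 to 272847 in WT, 23823 to 204420 in KO). In the trended fit 2 of the 13 passed, against 0.374% of all genes. Every KO heart was below every WT heart in 2 fibroblast, 1 endothelial, 3 macrophage and 6 atrial markers. Over all genes the share was 3.72%. Atrial means ran from -0.32 to 0.44 in WT hearts and were -0.22, -1.36, -2.15 and -1.46 in KO replicates 1 to 4. The fatty acid oxidation means of the same KO hearts were 0.27, 0.19, 0.37 and 0.14. No marker of these 5 lists was under a signal of 50 in all 8 hearts, and the part of the cell mixture in the higher fatty acid oxidation signals was not tested.

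**Figure D4:**
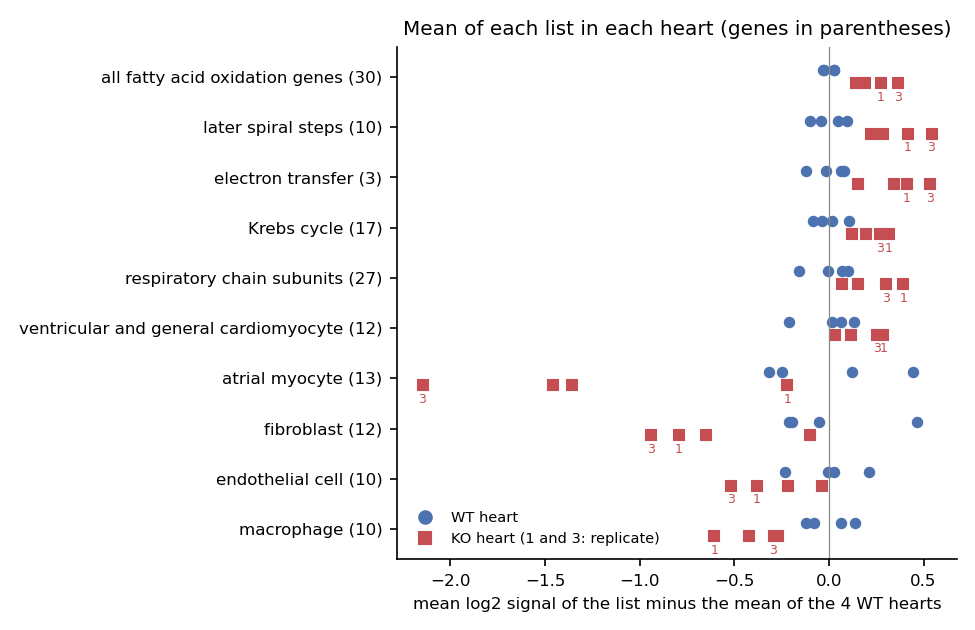
Mean log2 signal of each gene list in each heart, as the difference from the mean of the 4 WT hearts (x axis, log2 units), with the number of genes in parentheses. Circles are WT hearts and squares KO hearts, with KO replicates 1 and 3 numbered. All 4 KO squares lie above all WT circles for the fatty acid oxidation genes, the later spiral, electron transfer and the Krebs cycle, and they mix with the WT circles for cardiomyocyte markers.

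Other lists covered tissues that could come along with a heart. Of the smooth muscle markers, 4 of 6 had a lower KO mean, while their summed signal was higher in every KO heart (23121 to 27326 in WT, 30468 to 46957 in KO). In the trended limma fit 1 of the 6 passed, where 0.374% of all genes did, and none passed with the common variance. It was Acta2, smooth muscle actin, higher by 0.74 on the log2 scale (adjusted p = 0.042, common-variance 0.314). White adipocyte markers were higher in 4 of 4 measured (sums 450.1 to 845.2 in WT, 476.1 to 1675 in KO), and brown adipocyte markers, a tissue rich in the same oxidation enzymes, were lower in 4 of 6 (sums 2016 to 2864 in WT, 1793 to 3540 in KO). Skeletal muscle markers were lower in 4 of 6 (sums 413.1 to 927.0 in WT, 185.1 to 401.6 in KO), with Myh1 and Tnnt3 under a signal of 50 in all hearts. Among them 1 of 6 passed in the trended limma fit, Tnni2, fast troponin I, lower by 2.10 on the log2 scale (adjusted p = 0.037, common-variance 0.311). How the calls of Acta2 and Tnni2 hold under other settings is not given here. Red cell markers were higher in 3 of 3 measured (sums 740.4 to 1584 in WT, 1130 to 4650 in KO), with Hba-a1 under 50 in all hearts. Their part in the result was not tested.

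The pathway has other genes outside the 32. Of 52 listed, 49 were measured, and 33 of them had a higher KO mean and 16 a lower one. The median change was 0.12 on the log2 scale, and none passed after adjustment. In 8 of the 49 every KO heart was above every WT heart (3.11% of all genes, 12.7% of those over 12). In 1 every KO heart was below (3.72% of all genes). WT mean log2 signals in this list ran from 1.51 to 14.16, so the 12.7% applies to part of it. Among the 8, Slc25a20, Acss1, Abcd3 and Acat1 were over 12. How many of the 49 were over 12 was not counted, so it is not known how far the 8 exceed that share. Among 11 further genes of activation and the carnitine shuttle, Slc25a20, the carnitine-acylcarnitine carrier that sits between the 2 palmitoyltransferases, was at 13.08, 12.61, 12.91 and 12.83 in WT and 13.23, 13.42, 13.29 and 13.18 in KO hearts (0.42 ± 0.13 SE, adjusted p = 0.402, trended 0.118). With Cpt2 it had every KO heart above, unlike Cpt1a. Acss1, a mitochondrial acetyl-CoA synthetase, was at 0.48 ± 0.12 (SE; adjusted p = 0.342, trended 0.057) with its groups apart, although its mean over all probesets was -0.31. Cpt1c, the brain form of Cpt1, was dim and at -1.11 ± 0.73 (SE), with 1 KO heart far below the rest. The 15 other peroxisomal genes split 8 against 7, with Abcd3, a peroxisomal fatty acid transporter, at 0.40 ± 0.15 (SE) and apart from WT by 0.01, and the dim genes Acaa1b at -1.16 ± 0.29 (SE) and Acox3 at -0.85 ± 0.48 (SE). Of the 11 other thioesterases, 8 were higher, among them Acot11 at 0.46 ± 0.13 (SE) with its groups apart, Acot3 at 0.70 ± 0.42 (SE) and Acot5, whose signals, 2.99 ± 1.09 in the WT hearts (SD, n = 4) against 6.49 ± 2.68 in the KO hearts (SD, n = 4), are near the bottom of the scale. Of 12 mitochondrial genes that handle propionyl-CoA and branched or amino acid chains, 11 were higher. Every KO heart was above in 4 of the 12, among them Pcca (0.43), Hibch (0.37) and Acat1 (0.28). Their WT mean log2 signals ran from 9.90 to 14.16, so the share of genes over 12 applies to part of this list.

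The regulators of the pathway had mixed directions. Of 17 regulators, 10 had a higher and 7 a lower KO mean, with a median of 0.09 and none passing after adjustment. Over all genes 46.9% had a higher KO mean. Every KO heart was above every WT heart in 1 of the 17 (3.11% of all genes) and below in 1 (3.72% of all genes). Ppara, Nrip1 and Klf15 are named because they had the smallest unadjusted p of the list. Ppara, the receptor most closely tied to these enzymes in the heart, was at 9.64, 9.54, 9.92 and 9.93 in WT and 10.32, 10.33, 10.68 and 10.18 in KO hearts. All KO hearts were above, at a log2 fold change of 0.62 ± 0.16 (SE; adjusted p = 0.349, trended 0.074). Nrip1, a corepressor of nuclear receptors that restrains oxidative genes in muscle and fat, was at 10.60, 10.97, 10.99 and 10.86 in WT and 10.34, 10.48, 10.32 and 10.17 in KO hearts, all below WT (-0.53 ± 0.13 SE, adjusted p = 0.342, trended 0.068). Klf15 was at 0.43 ± 0.20 (SE) with overlapping groups. The coactivator genes Ppargc1a (0.12) and Ppargc1b (-0.07) and the receptor Esrra (0.24) had overlapping groups as well. By qPCR the paper reports lower PPARα and PGC-1α expression in SRC-2 KO hearts, so the direction of Ppara here is the opposite of its own.

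Of 10 measured PPAR targets outside the oxidation pathway, 6 had a higher and 4 a lower KO mean. In the trended limma fit 3 of the 10 fell, where 0.374% of all genes were called in either direction. The common-variance fit called none. Pdk4, the kinase that shuts off pyruvate oxidation when fat is burned, was at 14.40, 14.75, 14.54 and 14.84 in WT and 14.21, 13.61, 13.14 and 13.26 in KO hearts. It fell by 1.08 on the log2 scale (adjusted p = 0.334, trended 0.037). Ucp3, a mitochondrial carrier that responds to fatty acids, was at 10.15, 10.16, 10.10 and 10.55 in WT and 8.99, 9.51, 9.24 and 8.92 in KO hearts and fell by 1.07 (adjusted p = 0.220, trended 0.015). Angptl4, a secreted inhibitor of lipoprotein lipase, was at 10.55, 11.08, 10.38 and 11.76 in WT and 8.97, 9.57, 8.32 and 8.69 in KO hearts and fell by 2.06 (adjusted p = 0.252, trended 0.015), but the gene's probesets disagree, and without the one marked for shared transcripts it was at 0.60. The call of Ucp3 and of Angptl4 was lost without WT replicate 2 (trended adjusted p = 0.071 and 0.072), that of Pdk4 without any 1 of the WT hearts or without KO replicate 2 or 3 (0.079 to 0.135), all 3 with signals under 50 set to 50 (0.136 to 0.228), and all 3 with the mean of all probesets, where Ucp3 was at an adjusted p of 0.064, Pdk4 at 0.096 and Angptl4 at 0.680 with a log2 fold change of -0.73. In Pdk4, Ucp3 and Angptl4 every KO heart was below every WT heart (3.72% of all genes). The fatty acid carrier Cd36 (0.32) and the lipid droplet protein Plin5 (0.52) had every KO heart above (3.11% of all genes). Cd36 belongs to the qPCR panel in which the paper reports several fatty acid genes as lower.

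**Figure D5:**
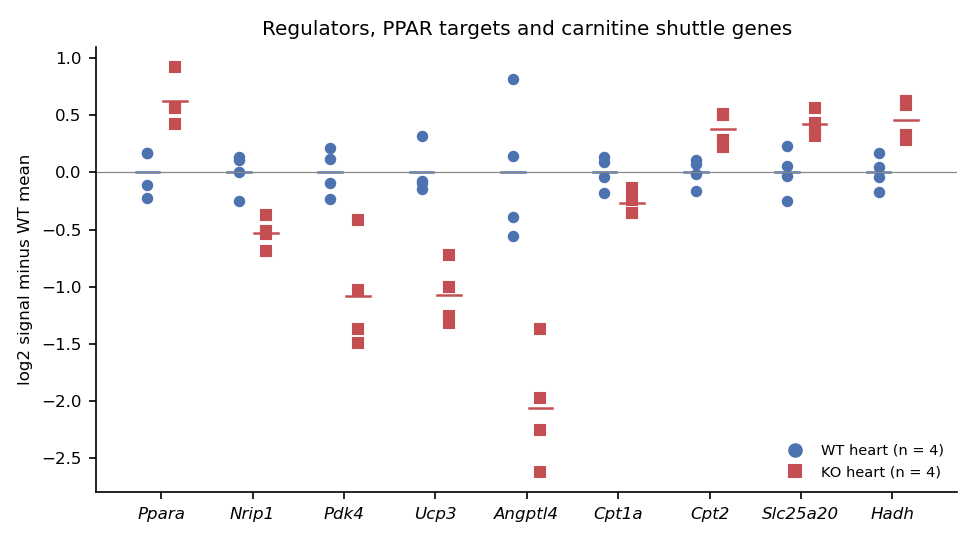
Log2 signal in each heart as the difference from the mean of the 4 WT hearts (y axis, log2 units) for 2 regulators, 3 PPAR targets outside the pathway and 4 genes of the carnitine shuttle and the spiral. Circles are WT hearts, squares KO hearts and lines the group means. All KO squares lie below all WT circles for Nrip1, Pdk4, Ucp3 and Angptl4 and above them for Ppara, Cpt2, Slc25a20 and Hadh, while Cpt1a overlaps.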

How the data were processed

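Total RNA of 4 WT and 4 SRC-2 KO hearts was labelled with the 3′ IVT Express kit and hybridised to Affymetrix mouse arrays by the authors, 1 heart per array, and the groups are those of the labels. RMA, Partek and Affymetrix Expression Console are the tools in the submitters' processing notes. The deposited table nevertheless holds linear intensities (0.219 to 124739), with every array scaled so that its mean without the lowest and highest 2% of probesets is 500, so log2 was taken here of the deposited intensities with no floor and no further normalization. The test plan had set this step for a table of linear intensities. The array medians ran from 77.0 to 87.3 in WT and from 75.6 to 83.2 in KO, the untrimmed means from 908 to 976 and from 953 to 1038, and correlations between arrays from 0.887 to 0.909. Precision is limited by having 8 arrays.

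Of 45101 probesets, 64 are controls, 9160 are not listed in the annotation, 932 list several genes and 34945 list 1. The last were used, with the probeset of highest mean log2 signal standing for each of 18193 genes, 18032 of them with a current RefSeq symbol (GRCm38.p6). The comparison of KO with WT was fitted by limma 3.58.1 (lmFit and eBayes, R 4.3.3) over all genes, two-sided, with Benjamini-Hochberg adjustment and a threshold of 0.05. The common-variance fit uses 1 prior variance, the nearest to the random variance model of the methods, and the trended fit lets the prior follow the mean signal. Standard errors are those of the common-variance fit, and percent changes are ratios of geometric means. Further probesets of a gene were tested by exact two-sided permutation of the 8 arrays. The scripts were tested on simulated data, and matplotlib 3.10.9 (Python 3.11.15) drew the figures.

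The members and the other lists were chosen with earlier results of these data known, so their counts and medians are descriptions. All members are named, and up to 3 genes of each other pathway list by the smallest unadjusted p in the common-variance fit. Cd36, Plin5, Esrra, Ppargc1a and Ppargc1b were named after their values were seen, as were the called markers Acta2 and Tnni2. Alternatives covered the variance prior, the random variance model test, unmoderated variances, weights for the arrays, a replicate block, the choice of probeset, dim genes, a floor of 50, median centring, quantile normalization and leaving out each heart.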

Additional observations from a re-analysis of the deposited data

Results flagged for a closer look

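In 4 of 60 groups of 4 hearts, 30 genes in each genotype, 1 heart lay far from the other 3 by Dixon's ratio of its gap to the whole range. Chance gives about 1 such group in 20. In Acads the lowest KO heart, replicate 2, was at a log2 signal of 12.51 against 12.63 to 12.65 in the others (ratio 0.912). In Hadha the lowest WT heart, replicate 2, was at 13.34 against 13.56 to 13.60 (ratio 0.835). In Hadhb the lowest WT heart, replicate 4, was at 14.99 against 15.33 to 15.36 (ratio 0.906). In Eci1 the highest WT heart, replicate 1, was at 14.29 against 14.12 to 14.14 (ratio 0.888). The 4 cases fall on 4 different hearts, and in all 4 genes every KO heart remained above every WT heart with these hearts included.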

How the results depend on the processing

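The member median of 0.29 ran from 0.24 (quantile normalization) to 0.35 (median centring) over the alternatives, and the count of members with every KO heart above every WT heart, 19, from 14 to 23. The median moved by less than its spread between hearts (0.12). No member was called in the common-variance fit under any alternative. In the trended fit 1 was called without probesets marked for shared or crossing transcripts (Hadh, 0.68, adjusted p = 0.040), and leaving out 1 heart gave 0 to 1 (Hsd17b10 without KO replicate 4, 0.46, adjusted p = 0.041). The count of members higher at an unadjusted p under 0.05, 17, was 11 with the mean of all probesets and 11 to 18 without 1 heart. Over all genes the 4 calls became 68 in the trended fit, 22 among genes above the median signal, 2 with the floor of 50, 1 with each gene's own variance and 1 with the mean of all probesets, and 1 to 3 without 1 heart. The 68 trended calls became 4 in the common-variance fit, 15 with the mean of all probesets and 2 with the floor, and ran from 5 (without WT replicate 2) to 320 (without KO replicate 4). With the replicate number as a replicate block, 0 genes were called, 12 members were higher at an unadjusted p under 0.05, and Ncoa2 had an adjusted p of 0.254. The same numbers deviated together little (correlations of 0.06, -0.08, -0.02 and 0.11 for numbers 1 to 4), and only replicate 4 correlated best with its own number, so the hearts share a number and were not treated as paired. With the mean of all probesets Ncoa2 had an adjusted p of 0.478. Directions reversed for Acot1 without KO replicate 3 (-0.13, where leaving out other hearts gave up to 0.30), for Angptl4 without the marked probesets (0.60), and with the mean of all probesets for Acss1 (-0.31) and Dld (-0.25). The cause was not tested in these cases. Of 1037 values of 55 single genes, 1026 kept their direction and side of the threshold. The 30 members were at adjusted p of 0.397 or above in the common-variance limma fit, so staying uncalled was likely from the outset. Dim genes, under the floor of 50 or near it, have no firm order here.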
